A study of Mus musculus with 8 samples.

Results

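The genes described here are 52 genes of cell division and DNA replication, 29 of which act mainly around the G1/S transition and 23 in G2 and mitosis (G2/M). They were chosen by name, with earlier results of these data known. Each was read from the transcript cluster (the array's probe set for a gene) with the highest mean over all arrays. Of these, 50 were measured among the 21905 gene symbols of the series. Ccne2 and Ccnb1 had no cluster annotated to that gene alone and are not analysed here. RNA came from whole adrenals of 4 sf1:Cre; Prkar1a Fl/Fl mice (knockout) and 4 WT littermates (wild-type), all female, 6 weeks old and of mixed genetic background, with 1 array per sample. Sf1:Cre recombines in cortical steroidogenic cells from the time the gland forms, so floxed Prkar1a, the regulatory subunit that restrains protein kinase A (PKA), is recombined there and not by design in medulla, vessels or fat. Values are log2 expression, and differences are knockout minus wild-type on that scale.

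Cells commit to division in G1, when D-type cyclins with CDK4 and CDK6, and then cyclin E with CDK2, phosphorylate the retinoblastoma protein and release E2F factors. E2F then drives the genes that license replication origins, build the replicative helicase and supply nucleotides. Later, the MuvB complex with B-MYB and FOXM1 switches on the mitotic genes. In the postnatal adrenal cortex, dividing cells lie mostly in its outer part, and most cortical cells are not cycling at any moment.

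Promoter sequences were taken from RefSeq (build GRCm38.p6), in windows that run from 250 bases before to 50 bases after each gene's start, and 39 of the 52 genes had an entry. Motifs of 3 kinds were searched on both strands. The E2F motif was TTTCCCGC, TTTGGCGC or TTTCGCGC, of which those that end in GCGC can overlap on opposite strands. The cell cycle genes homology region (CHR), the site known for MuvB, was TTTGAA, and the site known for NF-Y was CCAAT. The windows below belong to the genes whose expression differed between genotypes and show where motifs lie ahead of their starts. Each is 150 bases long, ends at or before the last base ahead of the start, and is the stretch with the most motif bases. Letters run 5′ to 3′ on the gene's strand, and capitals mark a motif on either strand. Ccnd2 had no entry.
Rrm2 (chr12:24708104-24708253, plus strand): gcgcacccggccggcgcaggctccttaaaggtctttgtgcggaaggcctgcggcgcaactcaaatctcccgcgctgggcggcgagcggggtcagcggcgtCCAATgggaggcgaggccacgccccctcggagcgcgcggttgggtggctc
Cdc45 (chr16:18812063-18812212, minus strand): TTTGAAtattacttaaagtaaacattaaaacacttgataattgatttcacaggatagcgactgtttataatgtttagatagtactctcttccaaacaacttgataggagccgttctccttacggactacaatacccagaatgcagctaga
Ccnd3 (chr17:47593317-47593466, plus strand): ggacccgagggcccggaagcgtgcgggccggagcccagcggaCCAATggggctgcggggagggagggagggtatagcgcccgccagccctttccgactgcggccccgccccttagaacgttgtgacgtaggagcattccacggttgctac
Cdk2 (chr10:128705052-128705201, minus strand): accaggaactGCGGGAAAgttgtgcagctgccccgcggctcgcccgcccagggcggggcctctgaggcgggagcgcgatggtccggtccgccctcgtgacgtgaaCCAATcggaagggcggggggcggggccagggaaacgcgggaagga
Mcm6 (chr1:128359706-128359855, minus strand): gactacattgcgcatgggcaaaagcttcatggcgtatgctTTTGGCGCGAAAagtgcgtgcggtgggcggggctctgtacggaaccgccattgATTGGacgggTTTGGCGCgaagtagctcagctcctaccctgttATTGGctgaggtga
Mcm2 (chr6:88898806-88898955, minus strand): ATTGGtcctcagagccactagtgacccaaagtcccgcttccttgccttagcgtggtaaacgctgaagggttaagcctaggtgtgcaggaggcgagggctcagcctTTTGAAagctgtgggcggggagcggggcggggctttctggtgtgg
Mki67 (chr7:135716418-135716567, minus strand): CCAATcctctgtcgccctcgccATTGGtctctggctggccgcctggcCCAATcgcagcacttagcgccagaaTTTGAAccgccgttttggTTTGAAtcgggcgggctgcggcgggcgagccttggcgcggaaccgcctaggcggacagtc

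The Mcm6 window held E2F words at -110, -106 and -47 relative to the start, the first and second of them overlapping, and the Cdk2 window held one at -140. The Mki67 window held CHR words at -116 and -98 with CCAAT words at -188, -166 and -141. The Cdc45 stretch shown held 1 CHR word at -240, and outside it the entry had CCAAT words at -13 and -2 and another CHR word at 10. The Rrm2 and Ccnd3 windows each held a single CCAAT word and neither of the other motifs. The split by phase was visible in the letters of the whole set. An E2F word lay in the window of 8 of 21 G1/S genes (38.1%) and 1 of 18 G2/M genes (5.56%, Cdk1), against 573 of all 27025 genes in the table (2.12%). A CHR word lay in 4 of 21 G1/S genes (19.0%) and 13 of 18 G2/M genes (72.2%), against 20.2% of all genes. CCAAT lay in 13 G1/S genes (61.9%) and 16 G2/M genes (88.9%), against 41.1% of all genes. Among the genes of origin licensing and the helicase, 6 of the 8 with an entry held an E2F word (Mcm3, Mcm5, Mcm6, Mcm7, Cdc6 and Cdt1), and of these 6 only Mcm6 passed the test of expression between genotypes. These matches describe the letters of the windows and were not tested as binding sites.

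**Figure D1:**
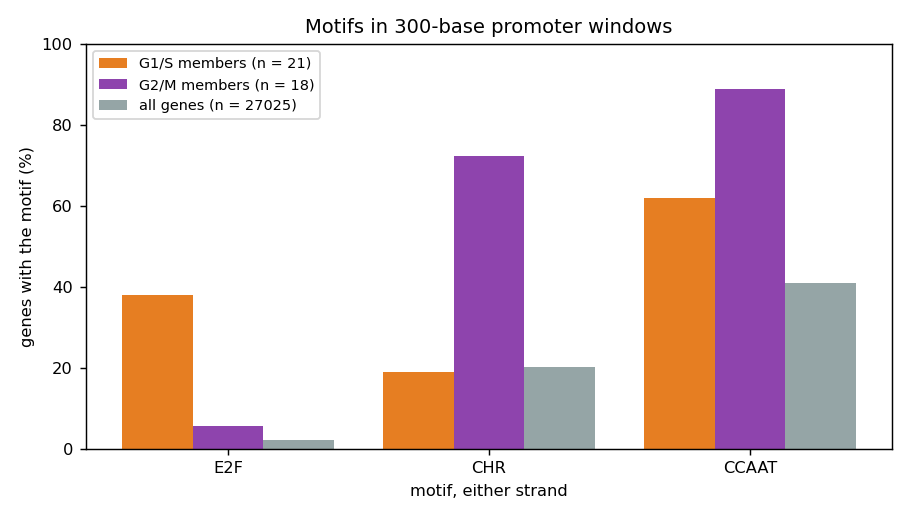
Share of genes (vertical axis, %) whose 300-base promoter window holds an E2F, CHR or CCAAT motif on either strand, for the 21 G1/S genes and 18 G2/M genes with an entry and for all 27025 genes of the table. The G1/S bar stands highest for E2F (38.1%) and the G2/M bar for CHR (72.2%) and CCAAT (88.9%).

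The authors' normalization (RMA) makes the distributions of the arrays alike, and their medians lay between 5.83 and 5.89. Pearson correlations over all clusters were 0.9904 to 0.9948 within knockout, 0.9884 to 0.9954 within wild-type and 0.9784 to 0.9845 between genotypes. Prkar1a read 6.92, 7.30, 7.35 and 7.19 on the knockout arrays and 8.83, 9.11, 9.04 and 8.70 on the wild-type arrays (difference -1.73, SE 0.12, adjusted p = 1.19e-05). All 9 markers of steroidogenic cortex cells were above the median of cluster means, and 4 of them passed the test, Fdx1, Scarb1 and Cyp11a1 higher in knockout and Mc2r lower. Of the 9 differences, 5 were above 0, the largest those of Fdx1 (1.30) and Scarb1 (0.86), and the median was 0.09. The other 4, of Mc2r, Cyp11b1, Hsd3b1 and Cyp21a1, were below 0 (-0.61, -0.12, -0.10 and -0.08). The mean of all 9 markers lay at 12.08 to 12.21 on the knockout arrays and 11.82 to 11.99 on the wild-type arrays. Markers of tissue around and between the cortical cells also differed on these arrays. Of 11 adipocyte markers, 8 were lower in knockout. Lep alone had a difference above 0 (1.05, adjusted p = 0.233 by limma), and only Ucp1 and Cidea did not overlap between genotypes. The mean of the 11 lay at 6.53 to 8.05 on the knockout arrays and 7.71 to 9.68 on the wild-type arrays, with wild-type replicate 1 the lowest of its group. Of 9 endothelial markers, 5 were higher in knockout, with means of 8.90 to 9.11 on the knockout arrays and 8.68 to 8.81 on the wild-type arrays. None of 8 lymphocyte markers and 1 of 8 macrophage markers passed the test, with means of 4.69 to 5.11 in knockout and 4.88 to 5.11 in wild-type for lymphocytes and 7.51 to 7.79 in knockout and 7.35 to 7.64 in wild-type for macrophages. Of 7 chromaffin markers, 1 passed (Pnmt, higher in knockout), and the other 6 had differences below 0. Of 10 capsule or fibroblast markers, 3 passed, Lum and Dcn higher and Rspo3 lower. Over all clusters, 7.35% were called higher in knockout and 6.17% lower. The part of these cell types in the values below was not tested, and in whole adrenals fewer cells of a type and less RNA per cell cannot be told apart.

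Of the 50 cell cycle genes, 8 differed between knockout and wild-type adrenals. Rrm2 and Cdc45 were higher in knockout, and Ccnd3, Ccnd2, Mcm6, Mcm2, Cdk2 and Mki67 were lower. This made 16.0% of the genes at an adjusted p under 0.05 (limma, Benjamini-Hochberg over all 22822 clusters with 1 gene symbol), while 13.5% of all clusters passed the same test. Higher values in knockout were called for 2 of 50 genes (4.0%), beside 7.35% of all clusters, and lower values for 6 (12.0%), beside 6.17%. Below 0 lay 39 of the 50 differences, beside 55.4% of all clusters, and their median was -0.11, beside -0.02 over all clusters. The knockout arrays lay all above the wild-type arrays for 3 genes and all below them for 9, where the corresponding shares of all clusters were 10.0% and 8.95%. When a log2 difference beyond 1 was also asked for, as in the methods, Rrm2 alone was called, with none lower. Here that cut was put on the limma calls, where the methods used t-tests. Of all clusters, 1.08% were then higher and 0.929% lower, or 2.01% in all.

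By phase, 7 of 28 G1/S genes (25.0%) were called, 2 higher and 5 lower, and 1 of 22 G2/M genes (4.55%), Mki67. The median difference was -0.10 for G1/S genes and -0.12 for G2/M genes. With clusters above the median intensity only, which left 21 G1/S and 4 G2/M genes, these medians were -0.14 and 0.04. The difference between the phases was not tested. The G2/M genes were dimmer on the arrays. Of the 22, 18 had a mean below the median of all cluster means, 5.87, as had 7 of the 28 G1/S genes. Below that median 4.85% of all clusters were called, and 22.2% at or above it, and all 8 called cell cycle genes lay above it. Of the further mitosis genes described below, 42 of 57 lay below that median and 6 of these 42 were called.

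**Figure D2:**
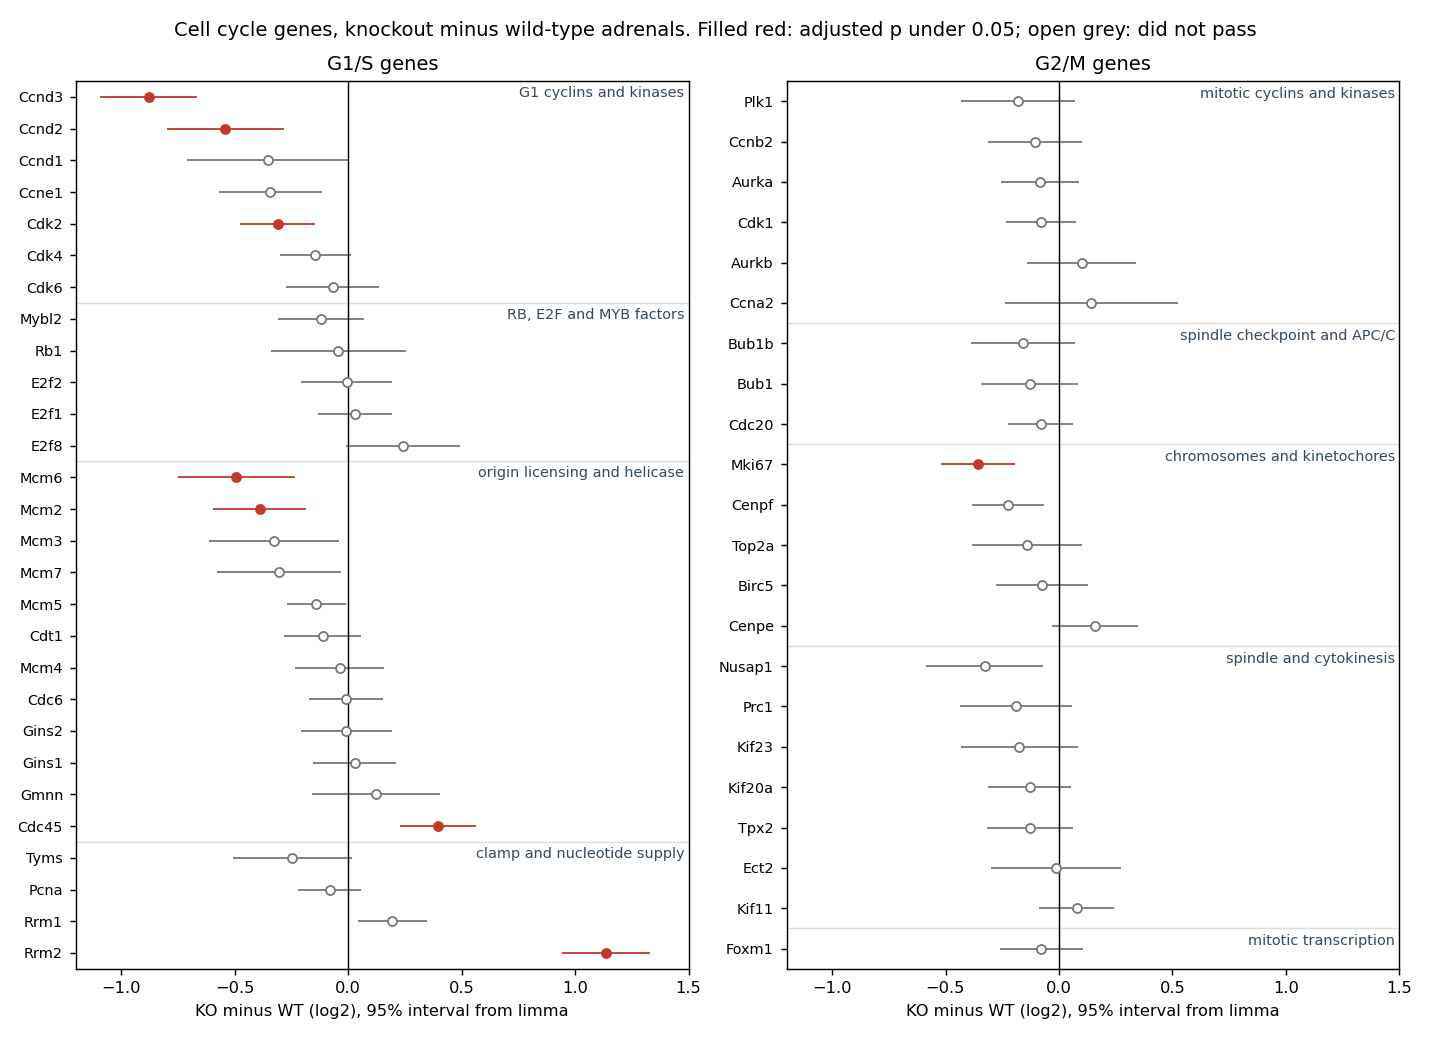
Difference in log2 expression, knockout minus wild-type, of the 28 G1/S genes (left) and 22 G2/M genes (right), grouped by role, with 95% intervals from limma over 4 arrays per genotype. Filled red points passed the test and open grey points did not. All 7 G1 cyclins and kinases lie below 0, and Rrm2 stands alone at 1.14.

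The G1 cyclins and their kinases were lower in knockout for 3 of 7 genes (42.9%), beside 6.17% of all clusters. All 7 differences were below 0, beside 55.4% of all clusters, with a median of -0.34. All 7 genes lay above the median of cluster means, where 22.2% of all clusters were called in either direction. Ccnd3, cyclin D3, fell the most of the 50 genes. It read 8.33, 8.31, 8.31 and 8.16 on the knockout arrays and 9.42, 9.12, 9.13 and 8.96 on the wild-type arrays. The groups stood well apart, with the lowest wild-type array above the highest knockout array. The difference was -0.88 (SE 0.10), a 1.84-fold lower level (adjusted p = 2.08e-04).

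Ccnd2, cyclin D2, read 10.38, 10.56, 10.56 and 10.48 in knockout and 11.33, 11.05, 11.05 and 10.71 in wild-type. The groups did not overlap, and wild-type replicate 4 came nearest to the knockout arrays. The difference was -0.54 (SE 0.12), a 1.46-fold lower level (adjusted p = 0.0108). Ccnd1, cyclin D1, read 8.79, 8.83, 9.19 and 8.67 in knockout and 9.58, 9.24, 9.28 and 8.79 in wild-type. These groups overlapped through wild-type replicate 4, which was as low as the knockout arrays. The difference of -0.35 (SE 0.16, adjusted p = 0.194) did not pass the test, and without wild-type replicate 4 it was -0.50 and passed (adjusted p = 0.0388). That was the only 1 of 18 alternatives in which Ccnd1 passed.

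Cdk2, the kinase partner of the E-type cyclins, read 6.67, 6.84, 6.86 and 6.92 in knockout and 7.14, 7.11, 7.24 and 7.04 in wild-type. All wild-type arrays were above all knockout arrays, and Cdk2 fell by 0.31 (SE 0.07, adjusted p = 0.0196). Ccne1, cyclin E1, showed the same order of arrays, at 5.60, 5.99, 5.81 and 6.06 in knockout and 6.32, 6.18, 6.23 and 6.10 in wild-type. Its difference of -0.34 (SE 0.10) lay just outside the threshold (adjusted p = 0.0507). The D-cyclin kinases Cdk4 and Cdk6 had differences of -0.14 and -0.07 and did not pass.

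**Figure D3:**
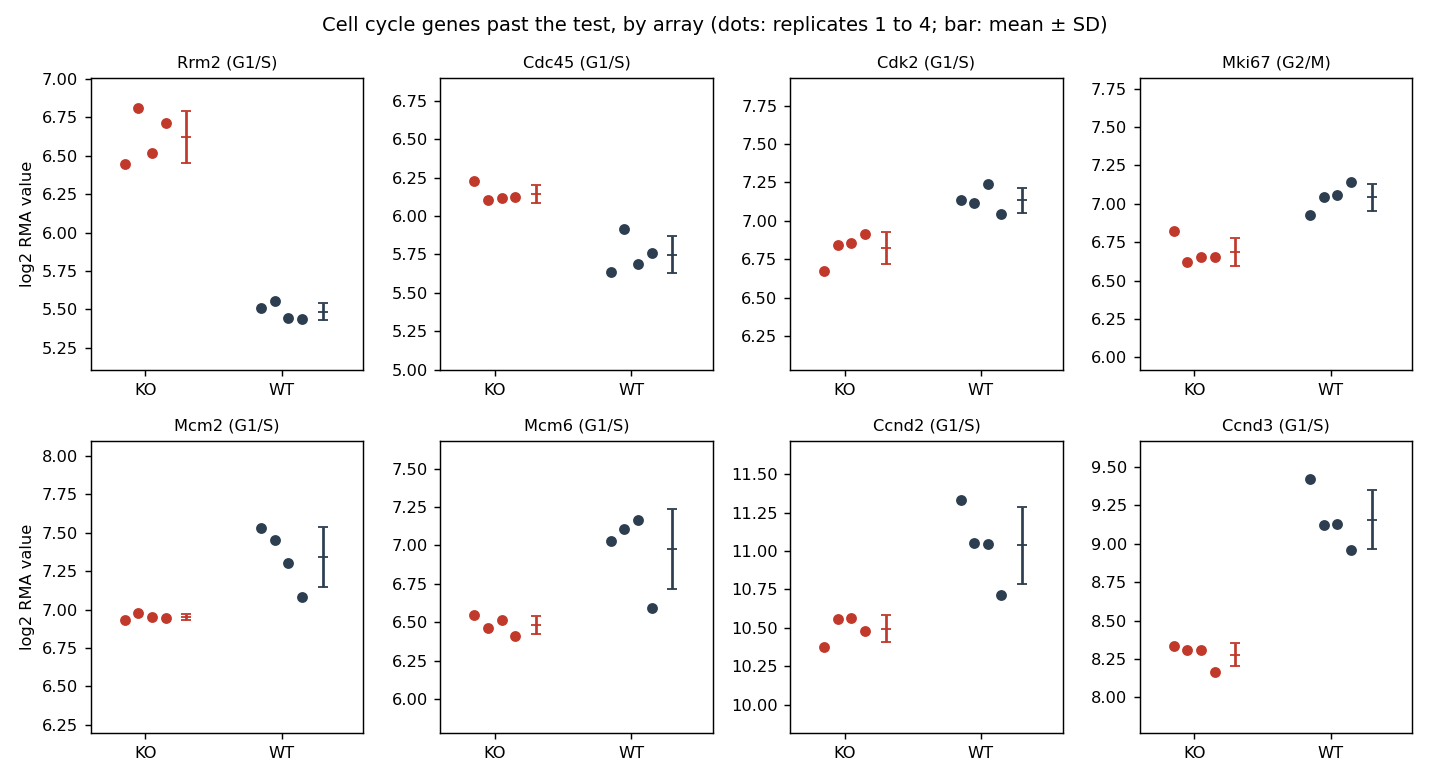
Log2 expression (vertical axis, RMA) of the 8 cell cycle genes that differed between genotypes, for each of 4 knockout (KO, red) and 4 wild-type (WT, blue) arrays, with the mean and SD beside the points and the same height of axis in every panel. The groups do not overlap in any panel, and wild-type replicate 4 is the lowest wild-type array for Ccnd2, Ccnd3, Mcm2, Mcm6 and Cdk2.

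None of the 5 retinoblastoma, E2F and MYB factors passed the test. Rb1, the retinoblastoma protein, read 8.76, 8.56, 8.90 and 8.70 in knockout and 8.44, 8.76, 8.74 and 9.15 in wild-type. The groups overlapped throughout, with both the lowest and the highest array in wild-type (difference -0.04, 95% interval -0.34 to 0.25). E2f1 and E2f2, activators of S-phase genes, had differences of 0.03 and -0.01, and Mybl2, which encodes B-MYB, one of -0.12. E2f8, a repressor of the family, had a difference of 0.24 (SE 0.11, adjusted p = 0.21). Of the 12 other genes of the RB and E2F families and the MuvB core, 1 rose (8.33%, beside 7.35% of all clusters) and 2 fell (16.7%, beside 6.17%). Of these 12, 11 lay above the median of cluster means, where 22.2% of all clusters were called in either direction. E2f3, another activator, was higher by 0.33 (adjusted p = 0.00757), and Lin9, a MuvB subunit, and Tfdp2, a dimer partner of E2Fs, fell by 0.37 and 0.34 (adjusted p = 0.0216 and 0.0116).

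Among the 12 genes of origin licensing and the replicative helicase, 1 rose (8.33%, beside 7.35% of all clusters) and 2 fell (16.7%, beside 6.17%). Of the 12, 8 lay above the median of cluster means, where 22.2% of all clusters were called in either direction. The helicase is a ring of MCM2 to MCM7 that is loaded in G1 by CDC6 and CDT1 and becomes active when CDC45 and the GINS complex bind. Mcm6 read 6.54, 6.47, 6.51 and 6.41 in knockout and 7.03, 7.11, 7.17 and 6.59 in wild-type. The wild-type arrays were all higher, but replicate 4 lay close to the highest knockout array while the other wild-type arrays stood well above it. Mcm6 fell by 0.49 (SE 0.12, adjusted p = 0.0173).

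Mcm2 read 6.93, 6.98, 6.95 and 6.95 in knockout and 7.53, 7.45, 7.31 and 7.08 in wild-type. The knockout arrays were nearly equal and the wild-type arrays spread above them (SD 0.02 and 0.20), and Mcm2 fell by 0.39 (SE 0.09, adjusted p = 0.0186). The other ring subunits did not pass, with differences of -0.33 for Mcm3, -0.31 for Mcm7, -0.14 for Mcm5 and -0.04 for Mcm4. Mcm3 and Mcm7 had the same low wild-type replicate 4, at 6.27 and 6.24 beside 6.64 to 6.73 on the other wild-type arrays of both genes, and without it both passed (-0.43, adjusted p = 0.0362, and -0.42, adjusted p = 0.0226). Of 18 alternatives, Mcm7 passed in that 1 only and Mcm3 in 2.

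Cdc45, which makes the loaded ring an active helicase, moved the other way. It read 6.23, 6.10, 6.12 and 6.13 in knockout and 5.64, 5.91, 5.69 and 5.76 in wild-type. Every knockout array was above every wild-type array, and Cdc45 rose by 0.39 (SE 0.08, 1.31-fold, adjusted p = 0.00578). Its partners in the active helicase, Gins1 and Gins2, had differences of 0.03 and -0.01. The loading factors Cdc6 and Cdt1 had differences of -0.01 and -0.11, and Gmnn, the inhibitor of CDT1, one of 0.12. None of these 5 passed the test.

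The only difference beyond 1 on the log2 scale was that of Rrm2, the small, S-phase subunit of ribonucleotide reductase, which makes deoxyribonucleotides. Rrm2 read 6.45, 6.81, 6.52 and 6.71 in knockout and 5.51, 5.55, 5.44 and 5.44 in wild-type. The lowest knockout array was far above the highest wild-type array. Rrm2 rose by 1.14 (SE 0.09, 2.20-fold, adjusted p = 2.42e-05). A second cluster annotated to Rrm2 was dim on all arrays, at 2.80 to 2.99 in knockout and 2.71 to 2.84 in wild-type, with a difference of 0.11 (adjusted p = 0.342).

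The partner of Rrm2 in the enzyme, Rrm1, had all knockout arrays (7.50 to 7.66) above the wild-type arrays (7.31 to 7.50), by very little at the nearest pair, with a difference of 0.195 (SE 0.07, adjusted p = 0.0922) that did not pass. Pcna, the sliding clamp of the replicative polymerases, read 8.85, 8.85, 8.88 and 8.88 in knockout and 8.90, 8.87, 9.03 and 8.99 in wild-type. The groups overlapped in the narrow gap between them, and the difference was -0.08 (95% interval -0.22 to 0.06, adjusted p = 0.461). Tyms, thymidylate synthase, had a difference of -0.25 (SE 0.12, adjusted p = 0.223).

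Of 52 further genes listed here under DNA replication, 3 rose (5.77%, beside 7.35% of all clusters) and 2 fell (3.85%, beside 6.17%). Cdc7, the kinase that fires licensed origins, fell by 0.51 (adjusted p = 0.0154), while Dbf4, its activating subunit, was higher by 0.29 (adjusted p = 0.0185). On the arrays, Cdc7 read 5.99, 5.77, 5.75 and 5.38 in knockout and 6.31, 6.21, 6.28 and 6.11 in wild-type, and Dbf4 read 5.45, 5.42, 5.38 and 5.23 in knockout and 5.09, 5.05, 5.14 and 5.05 in wild-type. Neither gene overlapped between genotypes. Pold2, a subunit of polymerase delta, fell by 0.24 (adjusted p = 0.038), a call that held in 9 of 18 alternatives. The count of genes that fell was 1 without knockout replicate 1, 3 or 4, without wild-type replicate 3 or 4, with the replicate block and with the arrays centred on their medians. Ubr7 and the bromodomain protein Atad2, whose place among the 3 that rose rests on the list alone, were higher by 0.59 and 0.40 (adjusted p = 0.00553 and 0.019). The median over the 52 was -0.06.

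Among the G2/M genes, 1 of 22 passed the test. Mki67, the Ki67 antigen that coats mitotic chromosomes and is absent from resting cells, read 6.82, 6.62, 6.65 and 6.65 in knockout and 6.93, 7.05, 7.06 and 7.14 in wild-type. All knockout arrays were lower, with knockout replicate 1 and wild-type replicate 1 nearest to each other. Mki67 fell by 0.36 (SE 0.07, 1.28-fold, adjusted p = 0.00902). Top2a, the topoisomerase that untangles replicated chromosomes, read 5.34, 5.52, 5.36 and 5.17 in knockout and 5.25, 5.66, 5.65 and 5.38 in wild-type. The groups overlapped, and its difference was -0.14 (95% interval -0.38 to 0.10, adjusted p = 0.479).

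The other genes of chromosomes and kinetochores were Cenpf, Cenpe and Birc5. Cenpf, a kinetochore protein, had all knockout arrays (5.07 to 5.28) below all wild-type arrays (5.35 to 5.50), with a difference of -0.23 (SE 0.07, adjusted p = 0.0651) just outside the threshold. Cenpe, the kinetochore motor, and Birc5, survivin of the chromosomal passenger complex, had differences of 0.16 and -0.08.

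None of the 6 mitotic cyclins and kinases passed, with differences from -0.18 for Plk1 to 0.14 for Ccna2. The values for Cdk1, the mitotic kinase, Ccnb2, its cyclin, and Aurka and Aurkb, the Aurora kinases of spindle and chromosomes, were -0.08, -0.11, -0.09 and 0.10. Ccna2, cyclin A2, had the widest interval of the 50 genes (-0.24 to 0.52). The checkpoint kinases Bub1 and Bub1b and the anaphase activator Cdc20 had differences of -0.13, -0.16 and -0.08.

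Among the 7 genes of the spindle and cytokinesis, 6 differences were below 0 and none passed. Nusap1, a spindle microtubule binder, was the lowest at -0.33 (SE 0.12, adjusted p = 0.0971). The midzone proteins Prc1, Kif23 and Kif20a had -0.19, -0.17 and -0.13, the spindle assembly factor Tpx2 -0.13, the cytokinesis regulator Ect2 -0.01 and the spindle motor Kif11 0.08. Foxm1, the factor that drives mitotic genes, read 4.91 to 5.14 in knockout and 4.95 to 5.23 in wild-type (difference -0.08).

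Of 57 further mitosis genes, 5 rose (8.77%, beside 7.35% of all clusters) and 7 fell (12.3%, beside 6.17%), with a median of -0.05. The count that fell was 3 with the arrays centred on their medians, 2 by Student's test, 1 with the replicate block, and 2 to 6 with single arrays left out, the lowest without knockout replicate 2 or wild-type replicate 3 or 4. The count that rose was 3 without knockout replicate 4 or wild-type replicate 1 or 3. The largest of these changes were Ttk, the checkpoint kinase MPS1, higher by 0.74 (adjusted p = 0.0122), Nek2, a centrosomal kinase, higher by 0.67 (adjusted p = 0.00121), and Rangap1, the GTPase activator of RAN, higher by 0.57 (adjusted p = 0.00531). Pbk, a mitotic kinase, fell by 0.47 (adjusted p = 0.0135), and G2e3 and Gas2l3 were higher by 0.46 and 0.42 (adjusted p = 0.0315 and 0.0487), calls that held in 10 and 9 of 18 alternatives. The other 6 that fell, named after their values were seen, were Smc4, a condensin subunit, Nuf2, Anln, Dlgap5, Cit and Tmpo, by 0.41, 0.40, 0.36, 0.29, 0.29 and 0.22. Ttk had its lowest value on wild-type replicate 1 (5.66, beside 6.28 to 6.58 on the other wild-type arrays and 6.89 to 7.06 in knockout).

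The wild-type arrays differed among themselves more than the knockout arrays. Wild-type replicate 4 was the lowest wild-type array for 15 of 28 G1/S genes, and wild-type replicate 1 for 12 of 22 G2/M genes. These arrays also had low weights when limma weighted the arrays over all clusters. The weights were 0.53 for wild-type replicate 4, 0.70 for knockout replicate 1 and 0.79 for wild-type replicate 1, beside 1.07 to 1.53 for the others. Averaged over the G1/S genes as deviations from each gene's mean, the knockout arrays stood at -0.10, -0.02, -0.04 and -0.04 and the wild-type arrays at 0.08, 0.07, 0.09 and -0.03. The first 3 wild-type arrays were above all knockout arrays, and replicate 4 lay among the knockout arrays. Over the G2/M genes the knockout arrays stood at -0.02, -0.06, -0.05 and -0.06 and the wild-type arrays at -0.08, 0.07, 0.11 and 0.09. Here wild-type replicate 1 was below every knockout array and the other wild-type arrays were above them.

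**Figure D4:**
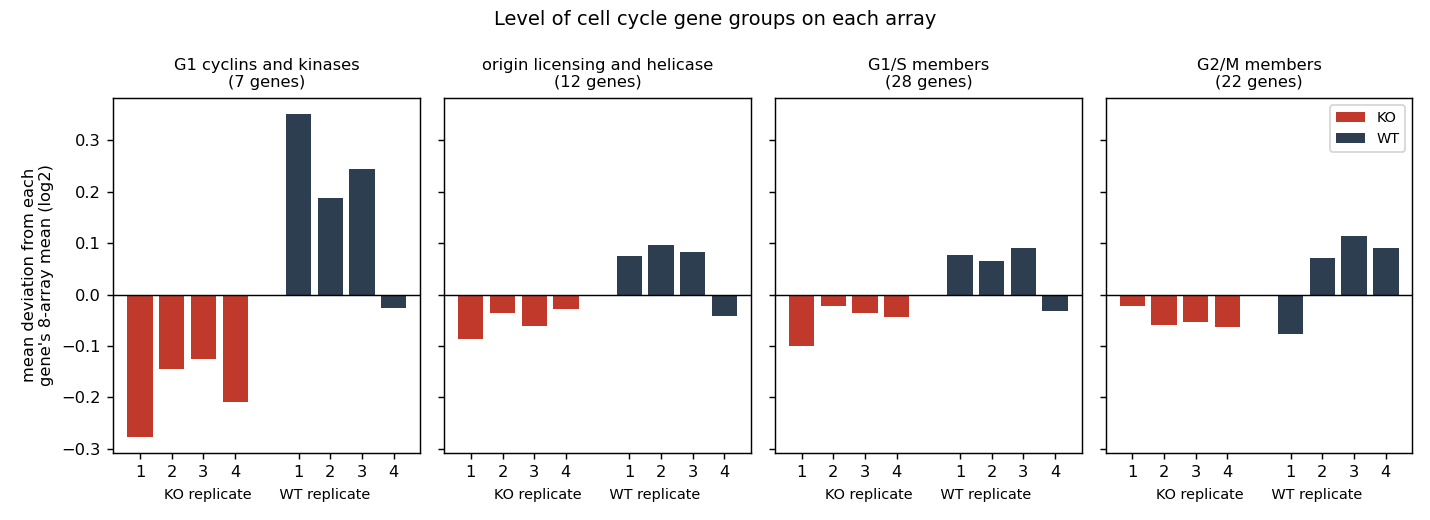
Mean deviation from each gene's mean over the 8 arrays (vertical axis, log2) on each of 4 knockout (KO, red) and 4 wild-type (WT, blue) arrays, for the 7 G1 cyclins and kinases, the 12 licensing and helicase genes, all 28 G1/S genes and all 22 G2/M genes. Wild-type replicate 4 is below 0 in the first 3 panels and wild-type replicate 1 is below 0 in the G2/M panel.

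Without wild-type replicate 4, 8 G1/S genes were lower in knockout in place of 5, and without wild-type replicate 2 or replicate 3 there were 3. Mcm6 did not pass without either of those or without knockout replicate 4, Mcm2 without wild-type replicate 2 and Cdk2 without wild-type replicate 3. Rrm2, Cdc45, Ccnd3, Ccnd2 and Mki67 passed whichever single array was left out. Wild-type replicate 1, with the lowest adipocyte markers of its group, was the highest wild-type array for 9 of 28 G1/S genes and 1 of 22 G2/M genes, and the lowest for 7 and 12. Over the 50 genes the median SD was 0.10 in knockout and 0.15 in wild-type, and the wild-type SD was the larger for 35 (70.0%), beside 53.7% of all clusters.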

How the data were processed

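RNA of whole adrenals from 4 Sf1:Cre;Prkar1a Fl/Fl and 4 wild-type mice was measured with the Affymetrix Mouse Gene 2.0 ST platform, each biological replicate on its own array. The authors normalized the arrays by RMA with the affy package (version not given in the sources used here), and the deposited values are log2 expression per transcript cluster. RMA makes the distributions of the arrays alike, so a shift of most genes together would not be seen. The authors' own log2 fold changes and adjusted p-values, in another deposited table, were not used.

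The log2 values were used as deposited. Symbols came from the platform annotation: of 28067 clusters, 22822 had 1 symbol and were tested, 1703 had several and 3542 had none. For the 22679 clusters found in the RefSeq gene table no symbol changed. Knockout minus wild-type was fitted with limma 3.58.1 in R 4.3.3 (lmFit, eBayes), two-sided, with Benjamini-Hochberg adjustment over all 22822 clusters and a threshold of 0.05. No p was computed over a list. The methods name a t-test, which was an alternative. The fit was tested on simulated data. Tables, motif searches and plots used Python 3.11.15, pandas 2.3.3 and matplotlib 3.10.9. The precision is limited by the spread among arrays and by their number, 4 per genotype. Read depth does not apply to array values.

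All 52 genes are named by their role. Values on every array are given for the called cell cycle genes, for Mki67, Top2a, Pcna, Ccnd1, Ccnd2, Ccnd3 and Rb1, and for Prkar1a, Ccne1, Cdc7 and Dbf4. For the other genes the difference is given, for some with the range over arrays. Up to 6 called genes with the largest changes are named from each list of further genes. Another 6 of the further mitosis genes were named after their values were seen. The genes and lists were chosen with earlier results of these data known. The alternatives were Student's and Welch's tests, the replicate number as a block, clusters above the median only, an intensity trend, array weights, median centring, repeated quantile normalization, all clusters, the lowest-mean cluster per symbol, a log2 fold change beyond 1, each array left out, and motifs on the given strand only.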

Additional observations from a re-analysis of the deposited data

Results flagged for a closer look

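In 3 cases a group of 4 arrays held 1 array far from the others, by a ratio of the gap to the range above Dixon's critical value of 0.829. Chance alone flags about 1 in 20 groups, and 104 groups were examined. Ccnd3 in knockout was lowest on replicate 4, at 8.16 beside 8.31 to 8.33 on the others (ratio 0.857). Mki67 in knockout was highest on replicate 1, at 6.82 beside 6.62 to 6.65 (ratio 0.841). Cenpe in knockout was highest on replicate 3, at 5.95 beside 5.63 to 5.68 (ratio 0.848). Ccnd3 and Mki67 passed the test without those arrays as well, and Cenpe did not pass with or without its high array.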

How the results depend on the processing

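Rrm2, Ccnd3, Ccnd2, Cdc45, Mcm6, Mcm2, Cdk2 and Mki67 kept their direction under every alternative run, and Ccnd3 and Mki67 were called under every other test and array set tried. The rule of a log2 change beyond 1 left 246 clusters higher and 212 lower, 1 cell cycle gene higher (G1/S, 1) and 0 lower, and 0 of the further replication and mitosis genes in either direction. Welch's test called 710 and 492 clusters, 1 cell cycle gene higher (G1/S, 1) and 2 lower (G1/S, 1), 0 and 0 further replication genes, and 1 and 1 further mitosis genes. Student's test called 1197 and 920 clusters, 3 G1/S genes lower, and 2 and 2 further mitosis genes. Ccnd2, Mcm2 and Mcm6 did not pass Student's test, while Mcm5, not called by limma, did. Of 18 alternatives, Ccnd2 was called in 16, Mcm2 and Cdk2 in 15 each and Mcm6 in 13. For a gene with 1 cluster, as all cell cycle genes but Rrm2 had, the lowest-mean cluster is the one already read. That alternative then repeats the main fit, and it is among the 18 here and above. The dimmer cluster of Rrm2 left 1 cell cycle gene higher (G1/S, 1). The replicate numbers were not taken to pair the arrays, as same-numbered deviations correlated at -0.04 to 0.04. With the replicate block, 2 cell cycle genes were higher and 5 lower (Cdk2 did not pass), with 1423 and 1185 clusters, 1 further replication gene lower and 1 further mitosis gene lower. Centring on array medians gave 1876 clusters higher and 1190 lower, against 1678 and 1407, with 1 further replication gene and 3 further mitosis genes lower. With clusters above the median only, the G2/M median was 0.0439 and 2 further mitosis genes were lower. Leaving out single arrays gave 4 to 9 cell cycle genes lower, 3 to 8 of them G1/S genes, 1 to 2 further replication genes lower, and 3 to 4 further mitosis genes higher and 2 to 6 lower. On the given strand only, E2F lay in 1.10%, CHR in 11.6% and CCAAT in 23.7% of all genes and CCAAT in 38.1% of G1/S genes.

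In all, 10 genes with small differences, none called, changed sign. With array weights E2f2 was 0.0176 and Gins2 0.0487. With centring E2f2 was 0.0203, Cdc6 0.0164, Gins2 0.0184 and Ect2 0.0141, and with repeated quantile normalization E2f2 was 0.0311, Cdc6 0.0385 and Gins2 0.0212. With single arrays left out, Rb1 ranged from -0.154 to 0.081, E2f1 from -0.0085 to 0.0684, E2f2 from -0.0729 to 0.0456, Mcm4 from -0.115 to 0.0105, Cdc6 from -0.0436 to 0.0355, Gmnn from -0.0106 to 0.195, Gins1 from -0.0403 to 0.0737, Gins2 from -0.0579 to 0.0461, Ccna2 from -0.0111 to 0.264 and Ect2 from -0.136 to 0.0742. The cause of these changes was not tested. Of all clusters, 4.85% were called below the median of cluster means and 22.2% at or above it.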
